A study of Mus musculus with 12 samples.

Results

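miR-202 is a gonadal microRNA (miRNA) whose hairpin precursor gives a mature strand from each side, miR-202-5p and miR-202-3p. The members are the rows of those names, 2 of the 1915 miRNA names in the deposited table, and they were chosen by name. The source was total RNA of the testis, from C57BL/6 males that were 4 months old, and RNAs of 17 to 40 nt were sequenced. Libraries were made before or after oxidation with sodium periodate (NaIO4) from 10, 50 or 100 ng of RNA, which makes 6 groups of 2 technical replicates, or 12 libraries. No other genotype or agent is named for any group. Spike-in RNA was present in all groups at a volume that followed the input, 5e-09, 2.5e-08 and 5e-08 µl. The study asked whether RNAs methylated at the 3' end can be found by oxidation at a low RNA input. Since replicates are technical, a p-value refers to the spread of libraries and not to differences between mice, and the labels do not say whether the inputs came from 1 RNA preparation.

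A miRNA hairpin is cut by Drosha and then Dicer into a duplex, from which an Argonaute protein keeps mainly 1 strand and finds targets through that strand's seed near the 5' end. Periodate attacks RNA ends with free hydroxyls, which most mammalian miRNAs have, and blocks ligation to them, while the 2'-O-methyl group at the 3' end of piRNAs protects them. miR-202 is known from Sertoli cells, the somatic nurse cells of the seminiferous tubule, where the male sex-determining factor SOX9 acts on its expression, and also from early germ cells.

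The sequences of both arms are shown because the arms behaved differently and because only the -3p arm has relatives by seed; the seed, bases 2 to 8, is in capitals. They were taken from RefSeq on build GRCm38.p6, and those of let-7a-5p, let-7b-5p and let-7f-5p are given for comparison.
mmu-miR-202-5p: uUCCUAUGcauauacuucuuu
mmu-miR-202-3p: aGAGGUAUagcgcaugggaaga
mmu-let-7a-5p: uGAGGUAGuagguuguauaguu
mmu-let-7b-5p: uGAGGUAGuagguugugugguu
mmu-let-7f-5p: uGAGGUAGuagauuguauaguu
The 72-nt hairpin that carries both arms, in capitals, shows how 15 bases separate them.
mmu-mir-202: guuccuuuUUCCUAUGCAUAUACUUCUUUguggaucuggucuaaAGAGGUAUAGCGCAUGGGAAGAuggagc

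The -5p arm is 21 nt long with 28.6% G and C, and the -3p arm is 22 nt long with 50% G and C. Among 1679 mature mouse miRNAs in RefSeq, 0 others shared bases 2 to 7 with miR-202-5p. Bases 2 to 7 of miR-202-3p occurred in 12 others, 11 of the let-7 and miR-98 family and miR-1961. Only let-7j also shared base 8, and its mean was 0.0605 RPM before oxidation, RPM being reads per 1000000 counted reads. The summed level of the 11 family members before oxidation was 12607 ± 1186 RPM (SD, n = 6).

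The hairpin lies on the minus strand at chr7:139957689-139957760 of GRCm38. The -5p arm lies at chr7:139957732-139957752 and the -3p arm at chr7:139957695-139957716. In GENCODE M21 it lies inside an exon (chr7:139957005-139957830) of the long non-coding RNA gene Gm2044, on the same strand. It also overlaps Gm16201, a processed transcript on the plus strand, but none of its exons. Another miRNA gene, mmu-mir-7686, lies 67 bases away on the same strand.

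RPM values were relative to 1924201 to 3347735 reads per library, recovered from the step that 1 read makes, so that 3 reads, taken as the floor, were worth 0.896 to 1.56 RPM. Before oxidation a library held 326701 to 454158 miRNA reads, and after it 625 to 937. Of the miRNA names, 141 had a mean of at least 5 RPM over the 12 libraries and were tested, both arms of miR-202 among them. The tables hold small RNAs of whole testis, so the label of Sertoli cells could not be checked against protein-coding markers. In such bulk RNA, fewer cells of a type and less RNA per cell cannot be told apart.

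Before oxidation the arms moved in opposite directions with input: miR-202-5p was lower and miR-202-3p was higher in the 10 ng libraries than in the 100 ng libraries. In the 10 ng replicates miR-202-5p was at 70.0 and 62.1 RPM, in those of 50 ng at 159 and 161 RPM, and in those of 100 ng at 191 and 178 RPM. Both 10 ng libraries were low, and the level rose with input. These values came from 196, 171, 409, 540, 567 and 584 reads in the same order. Group means were 66.0 ± 5.61, 160 ± 1.92 and 185 ± 9.30 RPM (SD, n = 2).

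For miR-202-3p the 10 ng replicates gave 35.0 and 47.6 RPM, those of 50 ng 12.8 and 13.4 RPM, and those of 100 ng 8.77 and 8.84 RPM. Here the 10 ng libraries were high, and the order was the reverse of that of the -5p arm. The reads behind them numbered 98, 131, 33, 45, 26 and 29. Group means were 41.3 ± 8.88, 13.1 ± 0.457 and 8.80 ± 0.0521 RPM (SD, n = 2). Both arms added came to 107 ± 3.27 RPM (10 ng), 173 ± 2.37 RPM (50 ng) and 193 ± 9.25 RPM (100 ng), so that the sum was 1.80-fold higher at 100 than at 10 ng.

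**Figure D1:**
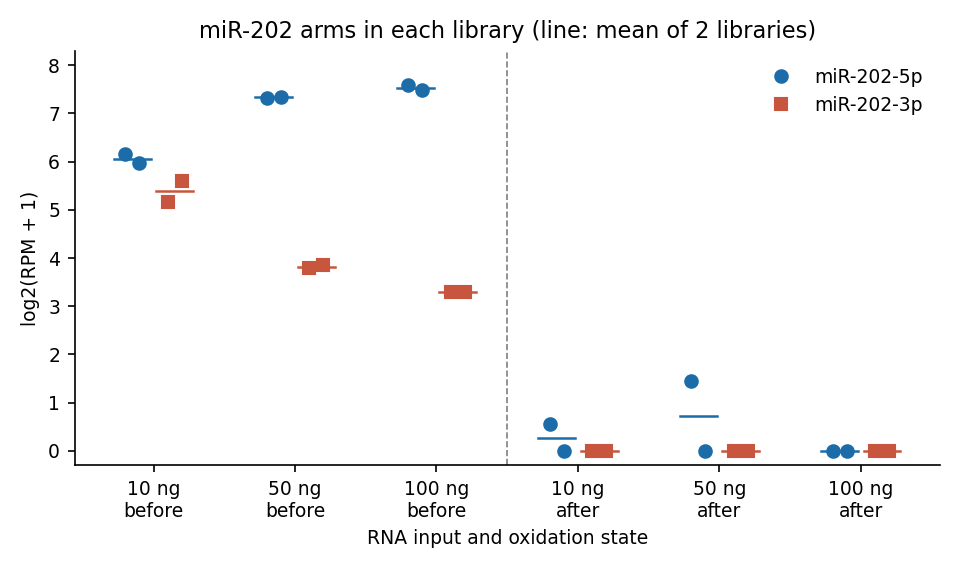
Level of each miR-202 arm as log2(RPM + 1) in the 12 libraries, by RNA input and oxidation state; points are libraries and lines are means of 2 libraries. Before oxidation the -5p arm lies lowest at 10 ng and the -3p arm lies highest there, and after oxidation the -5p arm is above 0 in 2 libraries and the -3p arm in none.

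At 10 against 100 ng the -5p arm was 2.80-fold lower. Its difference on the log2(RPM + 1) scale was -1.47 ± 0.40 (SE), with an adjusted p of 0.0143 in limma fitted across all tested miRNAs. The background was high: 34.8% of the 141 were called lower in this comparison, and miR-202-5p was the 14th lowest of all the differences. The -3p arm was 4.69-fold higher, with a log2(RPM + 1) difference of 2.09 ± 0.15 and an adjusted p of 4.35e-05 in limma, against a background of 19.1% called higher. It had the 7th highest difference. The median difference of all 141 was -0.49, so that relative to this median the arms stood at -0.98 and 2.58.

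These directions held for both arms under all other scalings tried. They also held with edgeR without TMM, which kept the RPM denominator and called 31 miRNAs higher and 63 lower. The scaling did move the split of calls over all miRNAs, from 27 higher and 49 lower to 37 and 23 with libraries centred on their medians, 47 and 24 per spike-in read, 40 and 39 per methylated spike-in read, 42 and 33 with edgeR and TMM, 37 and 30 with DESeq2, and 14 and 13 after quantile normalization. The call of the -5p arm was lost with centring (adjusted p = 0.0512, limma), quantile normalization (0.672) and a pseudocount of 0.1 (0.471), and without replicate 2 of 10 ng or either replicate of 100 ng before oxidation (0.0571 to 0.0823). The call of the -3p arm was not made with DESeq2, which gave a log2 difference of 2.55 with an SE of 3.18, an unadjusted p of 0.422 and no adjusted p. Both SEs from limma take in the libraries after oxidation, where the -5p arm was at 0 in 4 of 6 and the -3p arm in all. With only the 4 libraries compared, the SE of the -5p difference went from 0.40 to 0.15 and that of the -3p difference from 0.15 to 0.37, and both stayed called (adjusted p = 1.96e-18 and 1.30e-07, limma). The -3p arm passed the filter at a mean of 10.5 RPM over the 12 libraries, 65.3% of which came from the 10 ng libraries before oxidation. It thus reached the cutoff of 5 RPM only through the libraries where it was high. Without a filter its adjusted p was 0.000215 in limma.

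Relative to the methylated spike-in RNA, which oxidation spares, the pattern was the same. Reads of miR-202-5p per 100000 methylated spike-in reads numbered 645 and 604 in the 10 ng replicates, 1149 and 1331 in those of 50 ng, and 1426 and 1373 in those of 100 ng. For miR-202-3p they were 322 and 462, then 92.7 and 111, then 65.4 and 68.2. The 10 ng libraries were thus the lowest for one arm and the highest for the other on this scale as well.

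Between 50 and 100 ng neither arm passed the test. The difference at 50 against 100 ng was -0.20 ± 0.40 for miR-202-5p (95% interval -1.12 to 0.71, adjusted p = 0.868, limma) and 0.53 ± 0.15 for miR-202-3p (0.19 to 0.86, adjusted p = 0.0804, limma). No miRNA was called by limma here (0 of 141, 0%), although 24 had an unadjusted p under 0.05, and edgeR with TMM called 11, edgeR without TMM 16 and DESeq2 36. In limma itself 42 were called with only the 4 libraries compared and 40 at a pseudocount of 10. With only the 4 libraries compared, the SE of the -3p difference was 0.27 (adjusted p = 0.169, limma), so that the narrow interval above rests on the libraries after oxidation, all at 0. The call of miR-202-3p changed to higher when values were scaled to all spike-in reads (0.67, adjusted p = 0.0321, limma) or when replicate 1 or replicate 2 of 10 ng before oxidation was left out (adjusted p = 0.00538 and 0.00556, limma).

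Between 10 and 50 ng both arms were called. The -5p arm was 2.42-fold lower at 10 ng (-1.27 ± 0.40, adjusted p = 0.0400, limma), where 22% of all tested miRNAs were called lower. The -3p arm was 3.15-fold higher (1.57 ± 0.15, adjusted p = 0.000453, limma), where 8.51% were called higher. Without the filter, which this arm passed only through the 10 ng libraries, its adjusted p was 0.0018 in limma. The -5p call was lost when any 1 of 8 libraries was left out (all 6 before oxidation and both 100 ng libraries after it, adjusted p 0.0534 to 0.149), whereas that of the -3p arm was kept in all 12 such fits. With DESeq2 the -3p difference was 2.00 and was not called (adjusted p = 0.865).

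**Figure D2:**
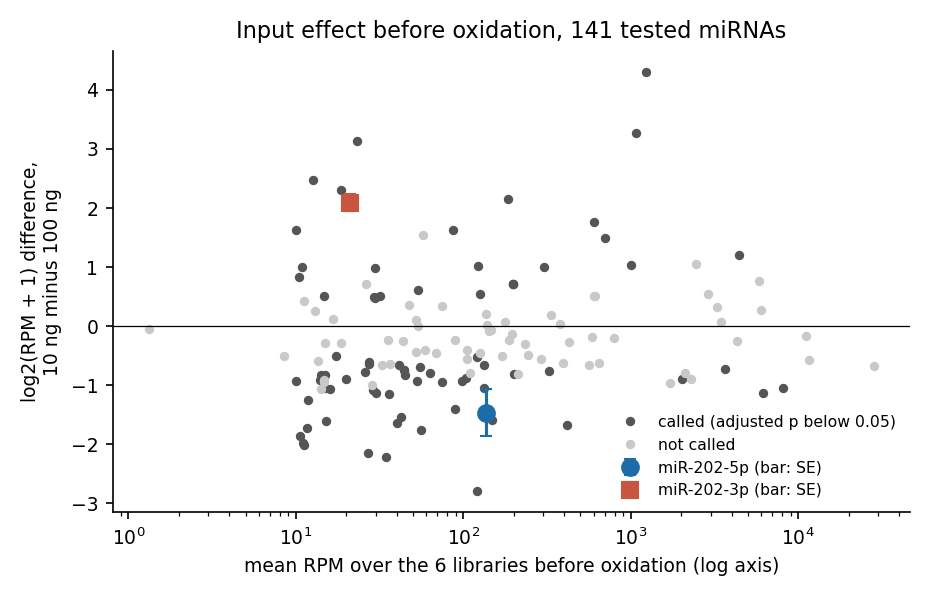
Difference in log2(RPM + 1) between 10 and 100 ng before oxidation against mean RPM before oxidation (log axis) for the 141 tested miRNAs; dark points were called by limma, and the bars of both miR-202 arms are SE. miR-202-5p lies among the lower differences at -1.47 and miR-202-3p among the highest at 2.09.

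The balance of the arms differed with input. Of the reads of both arms, miR-202-5p made up 66.7% (exact binomial 95% interval 61.0 to 72.0) and 56.6% (50.8 to 62.3) in the 10 ng replicates. In the 50 ng replicates the share was 92.5% (89.7 to 94.8) and 92.3% (89.8 to 94.3), and in those of 100 ng 95.6% (93.6 to 97.1) and 95.3% (93.3 to 96.8). Both 10 ng libraries lay far below the other 4, and the 50 ng libraries lay slightly below the 100 ng ones with overlapping intervals. Intervals cover counting error only, as reads without molecular identifiers are not independent molecules.

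Expressed as a ratio, there were 2 and 1.31 reads of the -5p arm per read of the -3p arm in the 10 ng replicates, 12.4 and 12 in those of 50 ng, and 21.8 and 20.1 in those of 100 ng. Mean shares by input were 61.6 ± 7.10%, 92.4 ± 0.16% and 95.4 ± 0.245% (SD, n = 2), a difference of -33.8 percentage points between 10 and 100 ng. An exact permutation test over the 3 inputs gave p = 0.0667, which is the smallest that its 90 assignments allow. The 10 ng replicates differed between themselves by more than counting error (Fisher's exact test, 2-sided, p = 0.0145, 0.0435 adjusted over 3 inputs), while those of 50 ng (p = 0.906) and 100 ng (p = 0.784) did not by the same Fisher's exact test.

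**Figure D3:**
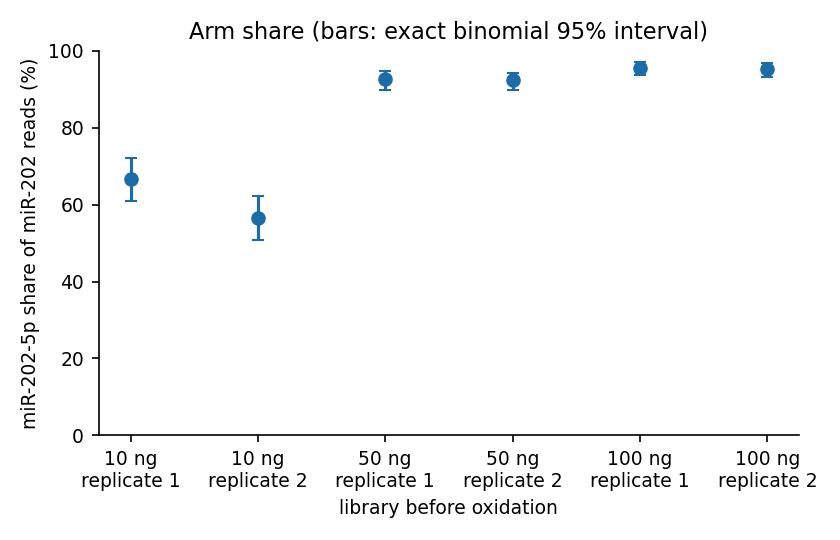
Share of miR-202-5p among the reads of both arms in each of the 6 libraries before oxidation, with exact binomial 95% intervals. The 10 ng libraries lie at 66.7% and 56.6%, and the other 4 lie between 92.3% and 95.6%.

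The arm balance of miR-202 was set beside that of other hairpins, a comparison chosen after seeing the data. Both arms of 24 hairpins had a mean of at least 5 RPM before oxidation. Of these, miR-465a, miR-465b and miR-465c hold the same values for the -3p arm and are not independent. At 10 ng 20 of the 24 had a lower -5p share than at 100 ng, with a median difference of -1.83 percentage points, against -33.8 for miR-202; with the miR-465 hairpins counted once it was 18 of 22, with a median of -1.45. The next differences were -22.2 points for miR-340 and -21.4 for miR-465b, and miR-463 lay at the other end at 17.1. A share near either end of the scale, such as that of miR-191 (99.9% at 100 ng), can move little in points. By the log2 ratio of the arms the hairpins next to miR-202 were miR-151 (-2.63) and miR-871 (-1.99). The log2 ratio of the -5p to the -3p arm of miR-202 was lower at 10 than at 100 ng by the largest amount of the 24 (-3.56 ± 0.27, adjusted p = 3.94e-06, limma over the 24 hairpins), where 45.8% were called lower and the median was -0.67. In all 13 hairpins were called in either direction, and 7 without replicate 1 or replicate 2 of 100 ng. Against 50 ng the difference was -2.83 ± 0.27 (adjusted p = 3.27e-05, limma), with 20.8% called lower. Between 50 and 100 ng it was -0.73 ± 0.27 and not called (adjusted p = 0.127, limma; 4.17% called), but it was called without replicate 1 or replicate 2 of 10 ng (adjusted p = 0.0334, limma).

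**Figure D4:**
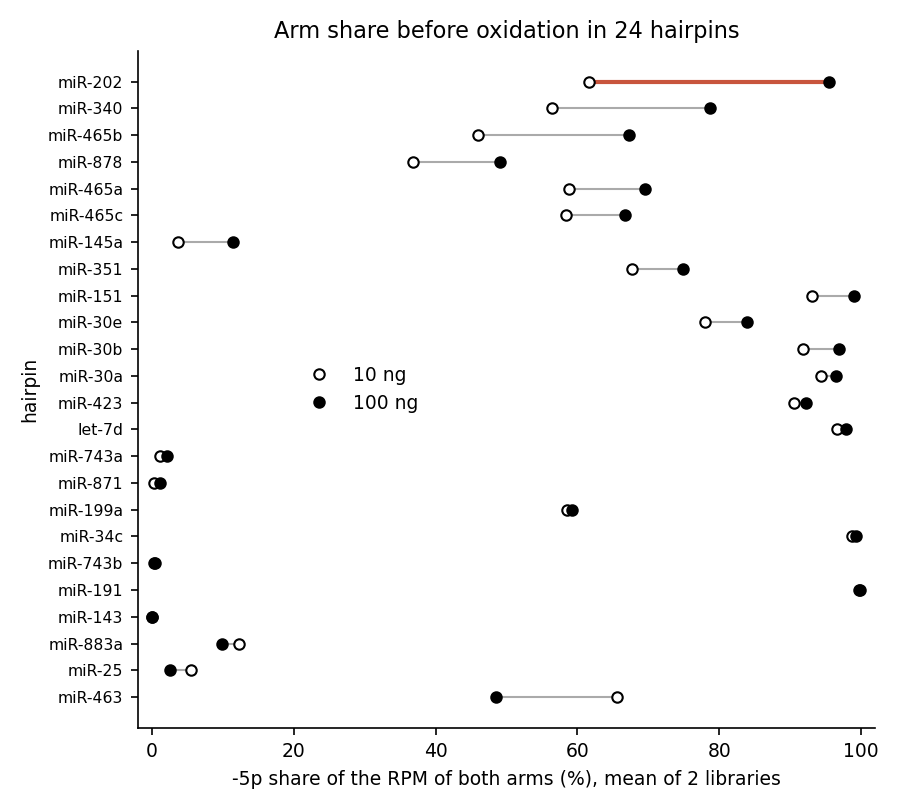
Share of the -5p arm in the summed RPM of both arms before oxidation in 24 hairpins, at 10 ng (open points) and 100 ng (filled points), each the mean of 2 libraries. The line of miR-202, from 61.6% to 95.4%, is the longest of the 24.

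Base composition was set beside these differences. Of the 141 tested miRNAs 123 (87.2%) had a sequence in the RefSeq table, and across them the 10 against 100 ng difference had a Pearson r of 0.27 and a Spearman rho of 0.23 with G and C content. The median difference was -0.79 in the 27 miRNAs under 40% G and C, -0.41 in 63 from 40% to under 50%, and -0.23 in 33 at 50% or more. miR-202-5p, at 28.6%, falls in the first class and miR-202-3p, at 50%, in the last. In 16 of 19 hairpins with both sequences the arm richer in G and C gained share at 10 ng. Most of these were richer in the -3p arm, and 20 of all 24 hairpins had a lower -5p share at 10 ng. By counts of this kind alone, base composition and the side of the hairpin thus cannot be told apart. Where the -5p arm was the richer, the log2 arm ratio was higher at 10 ng in miR-25 (1.19) and miR-883a (0.56). It was lower in miR-743b (-0.81) and miR-199a (-0.05). The gap between the arms was largest in miR-202 (-21.4 percentage points, -5p minus -3p). Across those 19 the gap and the shift of the log2 arm ratio had an r of 0.59 and a rho of 0.39. With the miR-465 hairpins counted once and miR-202, which is extreme on both measures, left out, the arm richer in G and C gained share in 13 of 16, with an r of 0.41 and a rho of 0.25. These correlations run across miRNAs that share the same libraries and are descriptions, and the part of base composition in the miR-202 difference was not tested.

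**Figure D5:**
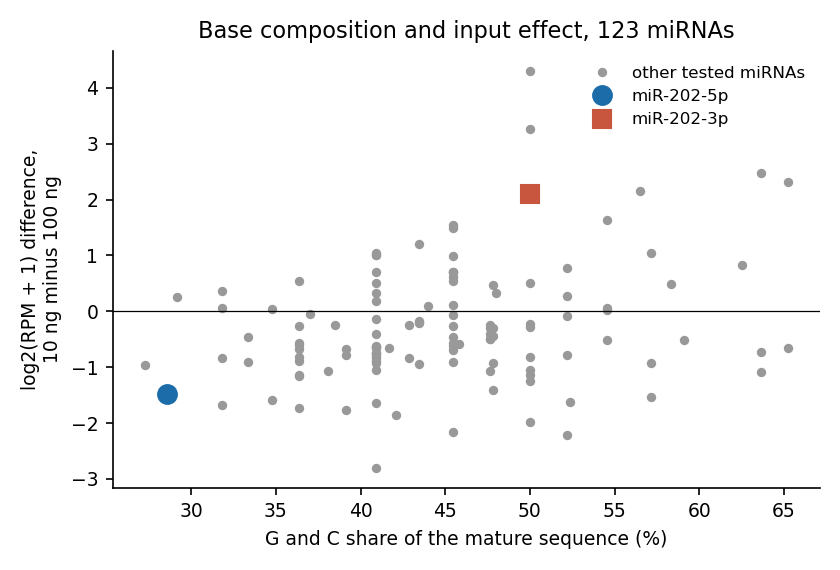
Difference in log2(RPM + 1) between 10 and 100 ng before oxidation against the G and C share of the mature sequence for 123 miRNAs. miR-202-5p (28.6%, -1.47) lies at the lower left and miR-202-3p (50%, 2.09) above most miRNAs of its composition, in a cloud with a Pearson r of 0.27.

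After oxidation almost nothing was left of either arm. miR-202-5p had 1 read (0.462 RPM) in replicate 1 of 10 ng, 5 reads (1.74 RPM) in replicate 1 of 50 ng and 0 in the other 4 libraries. miR-202-3p had 0 reads in all 6 libraries. Both arms were lower after oxidation at every input, as were most miRNAs (97.2% of the 141 tested called lower by limma, averaged over inputs). At 2 of the 3 inputs a -5p read was held by 1 library only.

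Mean levels of miR-202-5p were 137 ± 56.2 RPM before and 0.368 ± 0.699 RPM after oxidation (SD, n = 6). Over pooled reads the level was 364-fold lower, with a counting interval of 167 to 994. Replicate 1 of 50 ng held 5 of the 6 reads after oxidation, and without it the level was 1788-fold lower (321 to 70644, from 1 read). By input, again over pooled reads, it was 270-fold lower at 10 ng (48.2 to 10694, from 1 read), 164-fold lower at 50 ng (69.9 to 505, from 5 reads) and, against the floor, at least 401-fold lower at 100 ng. Without replicate 1 the 50 ng level was at least 120-fold lower. The mean of miR-202-3p before oxidation was 21.1 ± 16.3 RPM (SD, n = 6). With the floor of 3 reads counted over the oxidized libraries compared, it was at least 110-fold lower over all inputs, and at least 56.2-fold, 22.4-fold and 19.1-fold lower at 10, 50 and 100 ng. The bound of the -3p arm is looser because its level before oxidation was lower, so the arms' losses cannot be ranked.

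On the log2(RPM + 1) scale, averaged over inputs, the -5p arm fell by 6.64 ± 0.23 (adjusted p = 1.22e-09) and the -3p arm fell by 4.17 ± 0.08 (2.54e-11) in limma. With 97.2% of tested miRNAs called lower, these calls do not set miR-202 apart. Each arm was also called lower at 10, 50 and 100 ng, where 96.5%, 95.7% and 95% of miRNAs were. The direction refers to RPM: with libraries centred on their medians, which sets the level of miRNAs equal before and after, the averaged differences were -0.43 for the -5p arm (not called) and 2.04 for the -3p arm (called higher), although the -3p arm had 0 reads in every library after oxidation. The averaged direction also turned with DESeq2 (0.72 for the -5p and 1.88 for the -3p arm) and, for the -3p arm, with quantile normalization (0.38). For the summed arms the mean log2(RPM + 1) differed by -6.93 (exact permutation test within inputs, 2-sided, p = 0.00926, the smallest that such a test can give here).

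Within the few miRNA reads that remained, the share of miR-202 could not be told from that before oxidation. Both arms together made up 0.124% of miRNA reads before (2829 of 2278278) and 0.130% after (6 of 4609, exact binomial 95% interval 0.0478 to 0.283). For miR-202-3p alone the share before was 0.0159%, and 0 of 4609 reads after has an exact binomial upper limit of 0.0800% (3 reads would be 0.0651%), so a change was not detectable at this depth. The mean share of miRNA RPM per library was 0.122 ± 0.0247% before and 0.160 ± 0.320% after (SD, n = 6), a difference of 0.0377 percentage points (exact permutation test within inputs, 2-sided, p = 0.981). The mean after oxidation rests on replicate 1 of 50 ng, at 0.8%, without which the difference was -0.0904 points (exact permutation p = 0.0648).

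The difference between the oxidation effects at 10 and 100 ng was 1.75 ± 0.56 for the -5p arm (adjusted p = 0.0406, limma), where 24.1% of tested miRNAs were called higher, and -2.09 ± 0.21 for the -3p arm (adjusted p = 0.000543, limma), where 12.8% were called lower. Since miR-202-3p was at 0 in every library after oxidation, its value is the input difference before oxidation with the sign turned. Without a filter its adjusted p was 0.00432 in limma. The -5p arm had 1 read at 10 ng and 0 at 100 ng after oxidation, so its value carries mainly the input difference as well. The -5p call was lost in 9 of 12 fits that left out 1 library (adjusted p 0.0607 to 0.111) and at a pseudocount of 0.1 (0.321), and edgeR called neither arm with or without TMM (0.536 to 1.00).

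In the order of levels before oxidation, miR-202-5p ranked 54 of 1915 by its mean and between 45 and 72 in single libraries. Its neighbours in that order, which are by choice the nearest in mean, were miR-501-3p (137 ± 13.1 RPM) and miR-145a-3p (136 ± 19.7 RPM). The SD of its own 137 ± 56.2 RPM takes in the difference between inputs. miR-202-3p ranked 110, and between 78 and 142 in single libraries. In the same order miR-202-3p stood between miR-151-3p (23.1 ± 23.3 RPM) and miR-101a-3p (20.02 ± 5.80 RPM; SD, n = 6). At 10 ng miR-151-3p was 52.7 ± 5.76 RPM and at 100 ng 5.10 ± 0.542 RPM (SD, n = 2), so that it was higher at low input as miR-202-3p was, while miR-101a-3p was lower there (13.7 ± 0.861 against 26.4 ± 0.752 RPM).

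The miRNAs whose log2(RPM + 1) followed each arm most closely over the 6 libraries before oxidation, out of 139 compared, differed between the arms. For miR-202-5p they were let-7g-5p (Pearson r 0.993), miR-30a-5p (0.990) and miR-148a-3p (0.987). Their mean levels at 10, 50 and 100 ng were 1511, 2567 and 2813 RPM for let-7g-5p, 1353, 2172 and 2527 RPM for miR-30a-5p, and 1478, 2312 and 2560 RPM for miR-148a-3p. For miR-202-3p they were miR-423-5p (0.996), miR-375-3p (0.994) and miR-92a-3p (0.993). The level of miR-423-5p was 351, 123 and 77.8 RPM at the 3 inputs, that of miR-375-3p 145, 68.7 and 46.0 RPM, and that of miR-92a-3p 1450, 834 and 707 RPM. Between the arms of miR-202 themselves r was -0.990. All of these rest on 6 libraries in 3 inputs and describe the order of the inputs more than that of single libraries.

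Of 15 miRNAs listed as known from Sertoli and other gonadal somatic cells, 9 were tested at 10 against 100 ng before oxidation, of which miR-202-3p was higher, 5 were lower and 3 were not called, with a median of -0.79 against -0.49 for all tested miRNAs. Of the 7 tested beside miR-202, 0 were higher and 4 were lower: miR-27a-3p (-1.61), miR-140-3p (-1.54), miR-199a-5p (-0.79) and miR-23a-3p (-0.50). Over all tested miRNAs 19.1% were called higher and 34.8% lower, and counts this small do not set the list apart from them. The highest of the list, miR-27b-3p, was 199 ± 6.11 RPM at 10 ng and 246 ± 3.75 RPM at 100 ng, and miR-24-3p was 139 ± 10.8 and 197 ± 4.31 RPM (SD, n = 2); neither passed the test (adjusted p = 0.397 and 0.0984, limma). The summed level of the 13 listed beside miR-202 was 433 to 441 RPM at 10 ng, 597 to 599 RPM at 50 ng and 643 to 647 RPM at 100 ng, with miR-380-3p and miR-762 at 0 in all 6 libraries.

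In the let-7 and miR-98 family, which shares bases 2 to 7 with miR-202-3p, 9 of 11 were tested and 3 were higher at 10 than at 100 ng, against 19.1% of all tested miRNAs: let-7b-5p (1.496), let-7e-5p (1.01) and let-7d-5p (1.00). One member, let-7i-5p, was lower (-0.77), against 34.8% of all tested miRNAs. A further 5 were not called, and the median was 0.54. The most abundant members, let-7f-5p (3500 ± 11.5 RPM at 10 ng and 3355 ± 72.6 RPM at 100 ng) and let-7a-5p (3510 ± 59.2 and 2417 ± 143 RPM; SD, n = 2), did not pass the test. In single libraries before oxidation the summed RPM of the family was 292 to 401 times that of miR-202-3p at 10 ng, 901 to 1002 times at 50 ng and 1262 to 1326 times at 100 ng.

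Lists of miRNAs known from other testis cells were compared between inputs in the same way. Counts this small do not set these lists apart from all tested miRNAs, and their part in the miR-202 differences was not tested. Of the meiotic and postmeiotic list 4 of 7 were tested, with miR-34b-3p higher (0.55), miR-449a-5p lower (-2.15) and 2 not called. Over all tested miRNAs 19.1% were called higher and 34.8% lower. The summed level of the meiotic and postmeiotic list was 1241 to 1357 RPM at 10 ng, 1939 to 2031 RPM at 50 ng and 2320 to 2406 RPM at 100 ng. Most of it was miR-34c-5p, with miR-449b and miR-449c-5p at 0. Of the spermatogonial list 5 of 10 were tested and 3 were lower, against 34.8% of all tested miRNAs (miR-20a-5p -1.77, miR-183-5p -1.05, miR-21a-5p -0.81). Its summed level was 504 to 555 RPM at 10 ng, 657 to 665 RPM at 50 ng and 759 to 866 RPM at 100 ng, with miR-106a-5p at 0, and miR-146a-5p, its second member by level, was 180 ± 2.08 RPM at 10 ng and 198 ± 14.0 RPM at 100 ng.

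Of the smooth muscle and vessel list 3 of 5 were tested and none was called by limma at 10 against 100 ng. There 19.1% of all tested miRNAs were called higher and 34.8% lower. The sum of this list was 9145 to 9363 RPM at 10 ng, 12259 to 12341 RPM at 50 ng and 13632 to 13824 RPM at 100 ng. Nearly all of it was miR-143-3p. The blood cell list had no member tested, since each of its 8 was at a mean of 2.00 RPM or less before oxidation, and its sum lay between 2.39 and 10.5 RPM in single libraries, with miR-142a-3p and miR-223-3p at 0. All sums other than that of the let-7 family were lowest at 10 ng or, for the blood list, overlapped between 10 and 50 ng. After oxidation every tested member of these lists was called lower on the RPM scale, as were 97.2% of all tested miRNAs, so this does not set them apart.

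Fragments of the hairpin were also looked for in the piRNA table, where 0 of the 1018402 sequences shared 15 bases with the sense strand, and 1 sequence, with 1 read over the 12 libraries, shared 15 bases with the antisense strand.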

How the data were processed

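Small RNA was measured in 12 libraries, 2 technical replicates in each of 6 groups. The authors deposited miRNA and piRNA tables in RPM and a spike-in table of raw read counts, per the file headers and values. Per the submitters' processing notes, Bowtie (version not given) and the builds mm10 and hg38 were used. The RPM denominator, which no source states, was recovered from the value of 1 piRNA read (1924201 to 3347735 reads per library), which gave whole reads within 0.01 for 93.24% to 100% of miRNA values. A floor of 3 reads was used. No 2 libraries were identical, and 0 sample columns were left unused.

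log2(RPM + 1) of the 141 miRNAs with a mean of at least 5 RPM was fitted to 6 group means with limma-trend (limma 3.58.1, R 4.3.3) and adjusted by Benjamini-Hochberg over all of them; a call is an adjusted p below 0.05. Arm ratios of 24 hairpins were fitted with limma without the trend, in the 6 libraries before oxidation, and adjusted by Benjamini-Hochberg over the 24. This was an addition made after seeing the data. Alternatives included edgeR 4.0.16 and DESeq2 1.42.0 on recovered reads rounded to whole numbers. The fit was tested on simulated data in which all 12 libraries were drawn from the levels before oxidation. It was thus not tested for libraries near 0, such as those after oxidation. The members and lists were chosen with earlier results of these data known. Named miRNAs are both arms, the 2 highest members of each list, the neighbours in level and the 3 closest correlates; others named were singled out after their values were seen.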

Additional observations from a re-analysis of the deposited data

Results flagged for a closer look

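By a test of the difference itself, the effect of oxidation on miR-202-5p at 10 ng minus that at 100 ng was 1.75 on the log2(RPM + 1) scale (adjusted p = 0.0406, limma). For miR-202-3p the same difference was -2.09 (adjusted p = 0.000543, limma). After oxidation the 10 and 100 ng libraries held 1 and 0 reads of the -5p arm and 0 and 0 reads of the -3p arm, so that both values carry mainly the input differences before oxidation, -1.47 and 2.09, with the sign turned. Over pooled reads the -5p arm was 270-fold lower at 10 ng (48.2 to 10694) and at least 401-fold lower at 100 ng. A difference in the strength of oxidation can thus not be read from these calls. The -5p call was lost at a pseudocount of 0.1, and edgeR called neither arm.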

How the results depend on the processing

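Oxidation called both arms lower in every fit that left out 1 library, but scalings that equate miRNA levels before and after changed this. The calls were also lost with edgeR and TMM averaged over inputs, where the median difference of all tested miRNAs was still -4.16. Averaged over inputs, miR-202-5p was -0.43 with centring, -0.43 with quantile normalization, -2.54 with edgeR and TMM (none called) and 0.72 with DESeq2, and miR-202-3p was 2.04, 0.38, -7.66 and 1.88 in the same order. At 10 ng the -5p arm was 0.21, 0.093, 1.18 and 1.24, and the -3p arm was 0.61 with centring, -9.15 with TMM and 0.48 with DESeq2. At 50 ng the -5p arm was -0.35, 0.17, 2.17 and 2.98, the last called higher (adjusted p = 3.18e-05, DESeq2), and the -3p arm was 2.43, 0.64 and, with TMM, -7.24. At 100 ng the -5p arm was -1.54 with quantile normalization, -10.96 with TMM and -2.08 with DESeq2, and the -3p arm was 3.08, 0.83, -6.59 and 2.31 in the order of the averaged values. The number of miRNAs called, 139, became 298 without a filter, 66 at 50 RPM, 82 with quantile normalization, 21 with TMM and 27 with DESeq2.

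Before oxidation the arms kept their directions in every 10 against 100 ng fit. The -5p call was lost at a pseudocount of 0.1 (-1.48), with centring (-1.09) and with quantile normalization (-0.83), and was -1.56 to -1.39 with 1 library left out; the SE of the fit at a pseudocount of 0.1 was 1.27. The 76 miRNAs called became 38 at a pseudocount of 0.1, 115 without a filter, 26 at 50 RPM and 27 with quantile normalization. At 10 against 50 ng the -5p call was lost at a pseudocount of 0.1 (-1.28), without a filter (-1.27), with centring (-1.01) and quantile normalization (-0.74), and ranged from -1.35 to -1.18 with 1 library left out, and the -3p value with DESeq2 was 2.00. At 50 against 100 ng the -3p arm was called with all spike-in reads (0.67) and ranged from 0.49 to 0.56 with 1 library left out, and its log2 arm ratio was called at 20 RPM (-0.73), a filter that miR-202-3p passed only through its 41.3 RPM at 10 ng so that the call supports nothing, and ranged from -0.79 to -0.67. The difference between oxidation effects was not called for the -5p arm at a pseudocount of 0.1 (2.73), without a filter (1.75), with centring (1.37), quantile normalization (1.64), TMM (12.14) or edgeR without TMM (4.17), and ranged from 1.47 to 2.02 with 1 library left out; for the -3p arm it was -2.56 with TMM and -2.22 without. The share of miRNA RPM differed by -0.0904 to 0.0696 points. Beyond the SE given, the cause of these changes was not tested.

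Deviations of same-numbered libraries correlated from -0.20 to 0.18 over 15 pairs of groups. Whether same-numbered libraries were prepared together cannot be read from this. A replicate block changed no call of either arm (10 against 100 ng: adjusted p = 0.0112 and 0.000124, limma). With the block 138 miRNAs were called for oxidation averaged over inputs and 72 at 10 against 100 ng. miR-202-3p had no value at the 50 RPM filter, and DESeq2 gave no adjusted p for 4 of these results. Depth limits the values after oxidation most, where 6 reads in all were of miR-202.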
